A study of Mus musculus with 31 samples.

Results

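Livers of ChREBP-deficient mice were examined for 9 genes by which hepatocytes take up, trap and release glucose. They were chosen by gene name, with earlier results of these data known. They are Slc2a2 for transport, Gckr for the control of glucose phosphorylation, G6pc, G6pc3 and Slc37a4 for the release of free glucose, and Pcx, Pck1, Pck2 and Fbp1 for gluconeogenesis. All 9 passed the filter on dim spots and were tested, among 23968 genes tested in all. The array carried 12 probes for them, of which 11 were tested. The remaining Pck2 probe met the conditions on spot quality on 17 of 31 arrays and has no value here.

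The 31 arrays came from livers of male C57BL6/J mice that had fasted for 24 hours and then received food and water with 20% glucose for 18 hours, a regimen that favors ChREBP activation. ChREBP is a transcription factor encoded by Mlxipl and made as a full-length α isoform and a shorter β isoform. ChREBPβ-deficient mice (8 livers) lacked exon 1b of Mlxipl, removed by genome editing, and total ChREBP-KO mice (7 livers, numbered without a replicate 3) were null for Mlxipl and lacked both isoforms in every cell. Each line had its own WT littermates (8 livers each). Age was not given in the sources used here, and both knockouts were constitutive, so the livers had lacked the factor throughout life.

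Signals were compared on a log2 scale after quantile normalization, on which a difference of 1 is a doubling, and the tests were those of limma, unless another is named, with p-values adjusted over 36059 probes. The leading Mlxipl probe was lower in total ChREBP-KO livers (log2 fold change -1.16, SE 0.07, limma adjusted p = 8.05e-13) and in ChREBPβ-deficient livers (-0.45, SE 0.07, limma adjusted p = 0.0152), and in neither line did a KO liver reach its WT littermates. Of the other 2 Mlxipl probes, 1 was also lower in total ChREBP-KO livers (-0.59, SE 0.15, limma adjusted p = 0.00313), and no other call was made on them in either line. Markers of hepatocytes had a mean level between 17.95 and 18.14 in every liver. Quantile normalization holds the brightest probes at a set level (Alb was at 18.96 with an SD of 0 in each group). This narrow range therefore says little about hepatocyte content. Between 34131 and 38612 spots per array met the conditions on spot quality.

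Glucose crosses the hepatocyte membrane in both directions through GLUT2, the product of Slc2a2. Inside the cell it is phosphorylated by a hexokinase that the nuclear protein encoded by Gckr binds and inhibits; the gene of that enzyme was not analysed here. Release runs the other way. Pyruvate carboxylase, the phosphoenolpyruvate carboxykinases and fructose-1,6-bisphosphatase build glucose 6-phosphate from small precursors, Slc37a4 carries it into the endoplasmic reticulum, and a glucose-6-phosphatase there frees the glucose.

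The promoters of 3 of these genes are shown first because the genes behaved differently: G6pc had the largest decrease, G6pc3 moved little and Pck1 was not lower. Each line gives 250 bases directly upstream of the annotated start, on the plus strand of GRCm38.p6 as RefSeq has it, at chr11:101367466-101367715 for G6pc, chr11:102189449-102189698 for G6pc3 and chr2:173152823-173153072 for Pck1. Capitals mark matches, on either strand, to the motifs listed after them.
G6pc: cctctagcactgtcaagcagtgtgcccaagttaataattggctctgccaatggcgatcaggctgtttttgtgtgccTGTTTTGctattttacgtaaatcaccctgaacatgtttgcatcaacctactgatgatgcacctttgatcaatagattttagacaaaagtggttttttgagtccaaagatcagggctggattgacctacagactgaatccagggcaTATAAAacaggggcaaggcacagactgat
G6pc3: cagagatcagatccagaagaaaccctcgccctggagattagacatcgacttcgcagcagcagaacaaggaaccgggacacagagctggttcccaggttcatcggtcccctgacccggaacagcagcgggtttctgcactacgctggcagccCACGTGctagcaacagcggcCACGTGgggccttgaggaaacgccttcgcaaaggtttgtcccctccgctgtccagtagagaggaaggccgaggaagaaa
Pck1: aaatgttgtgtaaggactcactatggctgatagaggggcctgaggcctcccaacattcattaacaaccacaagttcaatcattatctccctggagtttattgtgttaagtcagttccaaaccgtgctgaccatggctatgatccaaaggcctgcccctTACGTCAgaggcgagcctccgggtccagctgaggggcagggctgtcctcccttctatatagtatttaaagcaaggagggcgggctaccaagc

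The search covered windows from 250 bases before to 50 after each start, 12 windows for the 9 genes, and gave the following counts. The E-box CACGTG, the core of the sites that ChREBP binds, was found in G6pc3, where matches began 99 and 79 bases before the start, and in 1 of 2 windows of Pcx, at 248 bases. It occurred in 7.15% of all 32851 windows. The full carbohydrate response element, a pair of such boxes at fixed spacing with variable bases, was in 0.119% of windows and in none of the 9 genes. Neither the cAMP response element TGACGTCA (1.79% of windows) nor the forkhead site GTAAACA (3.65%) was found in them. The shorter cAMP form TGACGTA was found in Pck1, 92 bases before the start, and in 1.27% of all windows. The forkhead form CAAAACA was found in G6pc, Gckr and Pck2 and in 6.28% of all windows. TATAAA was found in G6pc, 29 bases before the start, in 1 of 3 windows of Slc37a4, and in 13.6% of all windows. These matches describe short windows and are not evidence of binding.

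In total ChREBP-KO livers 7 of the 9 genes were lower than in WT littermates, against 33.9% of all genes tested that were called in either direction and 17.1% that were called lower. They were G6pc, Slc2a2, Slc37a4, Fbp1, Gckr, Pcx and G6pc3, from the largest to the smallest decrease. One gene of the 9, Slc37a4, was also called higher by a dim second probe, against 17.3% of all genes called higher. The leading probe of a gene is its brightest; for 6 genes every KO liver was below every WT liver on it, against 4.14% of all probes. The median change over the 9 leading probes was -0.69, beside 0.01 over all genes. Because the 9 genes were chosen with earlier results of these data known, these shares are descriptions and not a test. In ChREBPβ-deficient livers none of the 9 genes was called by limma, against 0.00417% of all genes. There 1 of their 11 probes had an unadjusted p under 0.05, beside 4.98% of all probes, and the median change was 0.07. An exact Mann-Whitney test made no call on any probe of the array in this comparison, the leading Mlxipl probe included. Its lack of calls therefore says little about the 9 genes.

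**Figure D1:**
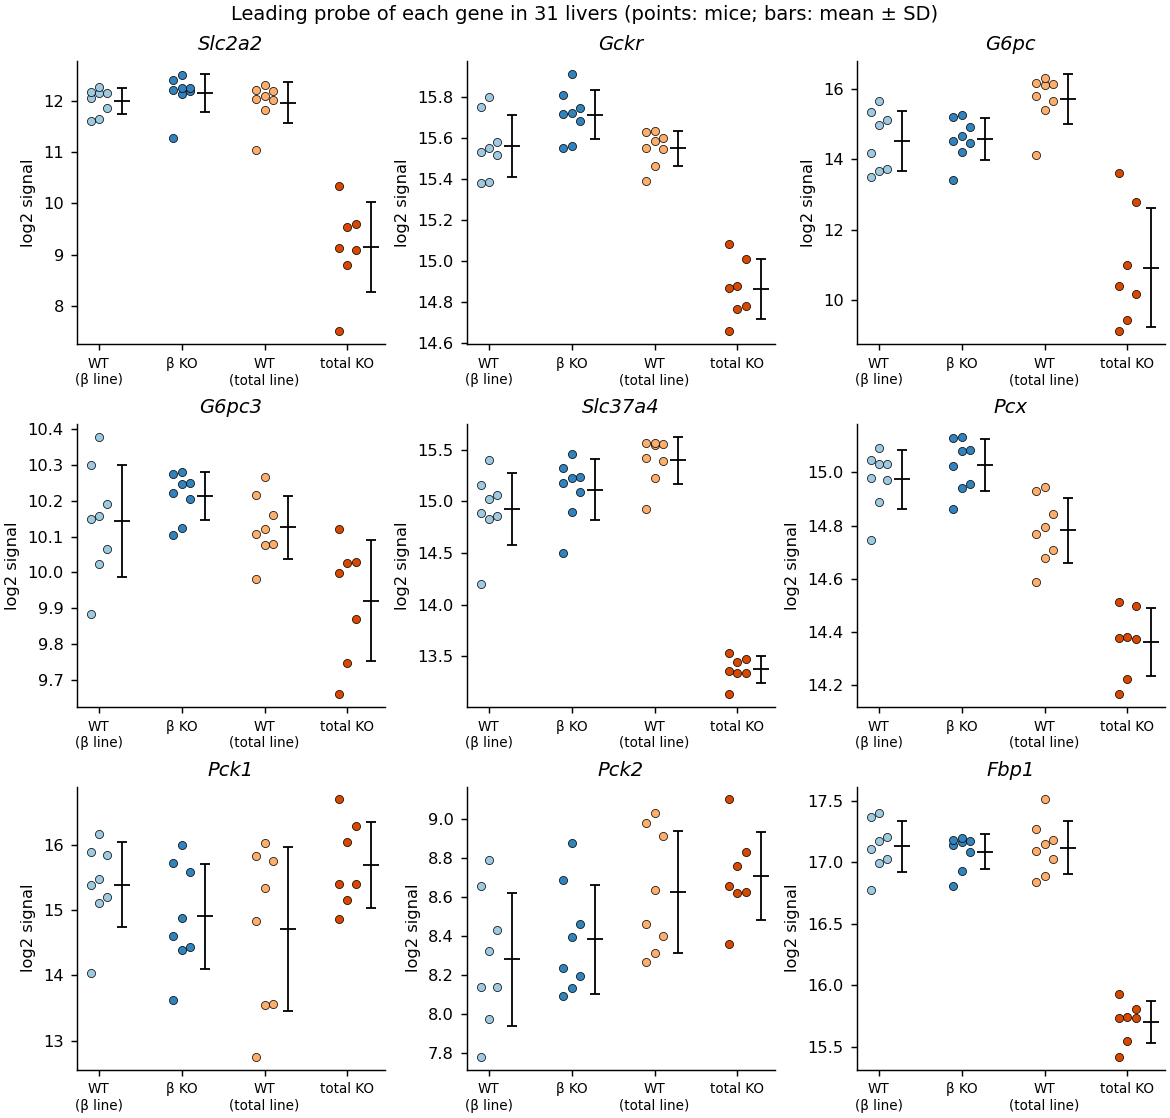
Log2 signal (vertical axis) of the leading probe of each gene in every liver, by group (horizontal axis), with the mean and SD beside the points. Total ChREBP-KO livers lie apart below their WT littermates for Slc2a2, Gckr, G6pc, Slc37a4, Pcx and Fbp1, and overlap them for G6pc3, Pck1 and Pck2.

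Slc2a2 was measured by a probe that spans 709 bases of the genome (mm9, chr3:28625253-28625961, plus strand) with 60 bases of sequence, as a probe across a splice junction does. It is shown because the value of the transporter rests on it alone.
Slc2a2 probe: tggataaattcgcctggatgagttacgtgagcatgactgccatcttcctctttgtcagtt

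On this probe WT littermates of the total line ranged from 11.03 to 12.30 with a median of 12.06. Total ChREBP-KO livers ranged from 7.5 to 10.33 with a median of 9.12. The highest KO liver thus stayed below the lowest WT liver. The mean fell from 11.96 ± 0.40 (SD, n = 8) to 9.14 ± 0.88 (SD, n = 7), a 7.06-fold decrease (log2 fold change -2.82, SE 0.25, 95% CI -3.33 to -2.31, limma adjusted p = 6.14e-10). The decrease was -2.29 among arrays of the first scan day and -3.49 among those of the second, with limma adjusted p = 3.73e-04 and 1.55e-06. In the β line the values ran from 11.60 to 12.26 in WT littermates (median 12.10) and from 11.28 to 12.50 in KO livers (median 12.23). These ranges overlapped, and the difference of 0.16 (SE 0.24, 95% CI -0.33 to 0.66, limma adjusted p = 1.0) left room for a change of up to 1.58-fold. The 2 knockouts differed from each other in their effect on Slc2a2 by -2.99 (SE 0.35, limma adjusted p = 4.72e-07).

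Gckr encodes a regulatory protein that holds the glucose-phosphorylating enzyme in the nucleus at low glucose and releases it when glucose and fructose 1-phosphate rise. Its probe lies at chr5:31629583-31629642 (mm9, plus strand). WT littermates of the total line ranged from 15.39 to 15.63 (median 15.57) and total ChREBP-KO livers from 14.66 to 15.08 (median 14.87). Again no value was shared between the groups. The decrease was 1.61-fold (log2 fold change -0.69, SE 0.07, 95% CI -0.82 to -0.55, limma adjusted p = 3.00e-09). ChREBPβ-deficient livers ranged from 15.55 to 15.91 (median 15.72) and their WT littermates from 15.38 to 15.80 (median 15.54), so the former lay slightly higher on average, by 0.15 (SE 0.06, limma adjusted p = 0.989), and this did not pass the test. The effects of the 2 knockouts differed by -0.84 (SE 0.09, limma adjusted p = 2.38e-07).

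G6pc, the catalytic subunit of the glucose-6-phosphatase of liver and kidney, had the largest change. Its probe lies at chr11:101238947-101239006 (mm9, plus strand). WT littermates of the total line ranged from 14.12 to 16.30 (median 15.95). In total ChREBP-KO livers the 7 values were 9.11, 9.43, 10.17, 10.40, 10.998, 12.78 and 13.60. Every KO liver was below every WT liver, but 2 KO livers, replicates 4 and 8, stood well above the other 5. The SD was 1.68 in KO livers and 0.71 in WT littermates. Of all 31 arrays, that of KO replicate 4 had the highest median background (33). It also had the fewest spots that met the conditions on spot quality (34131). The part of array quality in its G6pc value was not tested. The difference of the mean log2 signals corresponded to 3.63% of WT, a 27.6-fold decrease (log2 fold change -4.79, SE 0.50, 95% CI -5.80 to -3.77, limma adjusted p = 1.02e-08). It was -4.98 and -4.47 within the 2 scan days (limma adjusted p = 4.90e-04 and 1.26e-04), and leaving out any single array gave -5.23 to -4.48. In the β line, KO livers ranged from 13.40 to 15.26 (median 14.59) and WT littermates from 13.50 to 15.66 (median 14.57), nearly the same interval. The difference there was 0.06 (SE 0.48, 95% CI -0.92 to 1.04, limma adjusted p = 1.0), an interval that reached from a 1.89-fold decrease to a 2.05-fold increase. The effects differed by -4.84 between the knockouts (SE 0.69, limma adjusted p = 8.77e-06).

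G6pc3, a glucose-6-phosphatase catalytic subunit expressed in all tissues, had 2 probes. On the leading one (mm9, chr11:102055338-102055395), total ChREBP-KO livers ranged from 9.66 to 10.12 (median 9.999) and WT littermates from 9.98 to 10.26 (median 10.11). The groups overlapped, with 3 KO livers below all WT livers. The decrease was 1.15-fold (log2 fold change -0.20, SE 0.07, limma adjusted p = 0.0194) and the difference from the ChREBPβ effect was -0.27 (limma adjusted p = 0.0408), a call lost in 15 of 31 fits that left out an array. Within the scan days the decrease was -0.12 and -0.32 and passed in neither (limma adjusted p = 0.348 and 0.0561). The second probe gave -0.14 (SE 0.08, limma adjusted p = 0.167). In ChREBPβ-deficient livers the probes differed from WT by 0.07 (SE 0.06) and 0.13 (SE 0.07), with limma adjusted p = 1.0 for each.

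Slc37a4, the translocase that brings glucose 6-phosphate to the phosphatase, changed with little spread between livers. On its leading probe (mm9, chr9:44210978-44211037), the 8 WT littermates of the total line ranged from 14.92 to 15.57 (median 15.49) and the 7 KO livers from 13.13 to 13.53 (median 13.35). More than a log2 unit separated the highest KO liver from the lowest WT liver. The decrease was 4.08-fold (log2 fold change -2.03, SE 0.13, 95% CI -2.30 to -1.76, limma adjusted p = 1.47e-12), and it was -2.04 and -2.0 within the 2 scan days. ChREBPβ-deficient livers ranged from 14.50 to 15.46 (median 15.20) and their WT littermates from 14.20 to 15.40 (median 14.96). They overlapped almost fully, with a difference of 0.19 (SE 0.13, 95% CI -0.07 to 0.45, limma adjusted p = 1.0). The effects of the knockouts differed by -2.22 (SE 0.18, limma adjusted p = 1.32e-09). The second Slc37a4 probe (mm9, chr9:44205736-44205795) was dim, met the conditions on spot quality on 24 arrays and entered the test because it met them within a group. It ranged from 5.43 to 5.81 in WT littermates and from 5.63 to 6.14 in KO livers, an overlapping increase of 0.22 (SE 0.09, limma adjusted p = 0.0476). That call was lost under 9 of 14 other settings and 19 of 31 fits that left out an array.

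**Figure D2:**
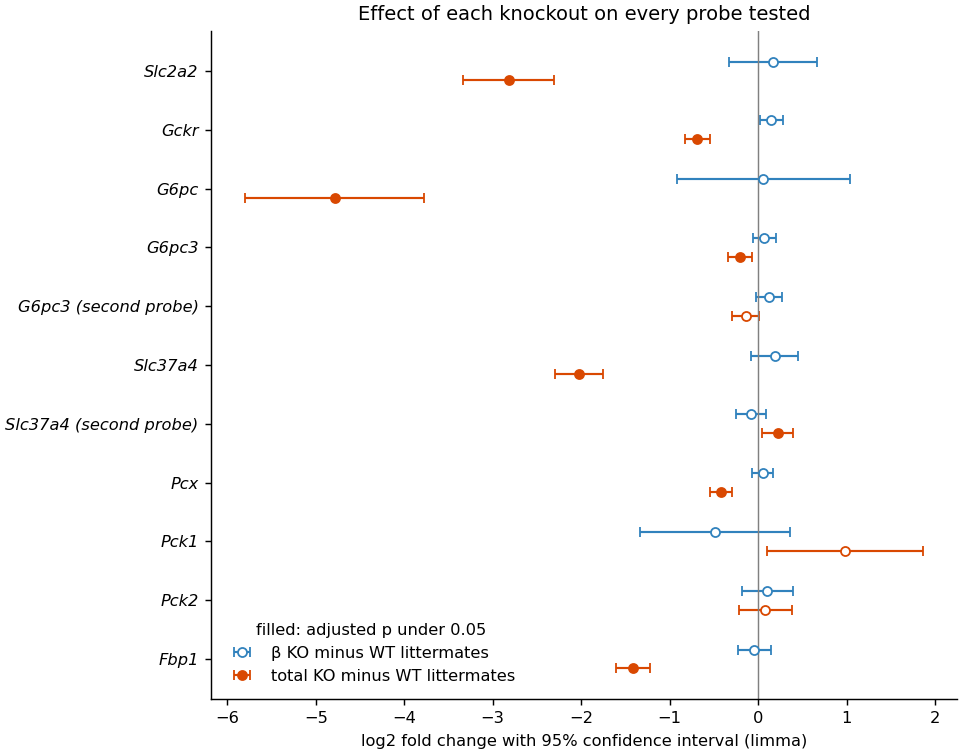
Log2 fold change (horizontal axis) of KO livers against WT littermates with its 95% confidence interval, for all 11 probes tested (vertical axis), in ChREBPβ-deficient (blue) and total ChREBP-KO (orange) mice. All intervals of the ChREBPβ comparison reach or lie near 0 and no point is filled, whereas G6pc at -4.79, Slc2a2 at -2.82, Slc37a4 at -2.03 and Fbp1 at -1.42 lie far to the left in total ChREBP-KO livers.

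Of the 4 gluconeogenic enzymes, 2 were lower in total ChREBP-KO livers and 2 were not called. Pcx encodes pyruvate carboxylase, which makes oxaloacetate in mitochondria at the entry of the pathway. Its probe (mm9, chr19:4621610-4621669) ranged from 14.59 to 14.94 in WT littermates (median 14.78) and from 14.17 to 14.51 in KO livers (median 14.38). The groups were separate by a small margin. The decrease was 1.34-fold (log2 fold change -0.42, SE 0.06, 95% CI -0.55 to -0.29, limma adjusted p = 4.17e-06). ChREBPβ-deficient livers differed from their WT littermates by 0.05 (SE 0.06, 95% CI -0.07 to 0.17, limma adjusted p = 1.0). The effects of the knockouts differed by -0.47 (SE 0.09, limma adjusted p = 2.21e-04), a call that was lost among arrays of the first scan day alone (-0.44, limma adjusted p = 0.11).

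Fbp1, the liver fructose-1,6-bisphosphatase, catalyzes the irreversible step above the triose phosphates. Its probe lies on the minus strand at chr13:62966175-62966234 (mm9). WT littermates of the total line ranged from 16.84 to 17.51 (median 17.12) and total ChREBP-KO livers from 15.42 to 15.93 (median 15.73). The gap between the groups was wider than the range of either of them. The decrease was 2.67-fold (log2 fold change -1.42, SE 0.09, 95% CI -1.61 to -1.23, limma adjusted p = 1.72e-12), and it was -1.53 and -1.27 within the scan days. In the β line KO livers ranged from 16.81 to 17.19 (median 17.15) and WT littermates from 16.77 to 17.40 (median 17.14), and the difference was -0.04 (SE 0.09, 95% CI -0.23 to 0.14, limma adjusted p = 1.0). The effects differed by -1.37 (SE 0.13, limma adjusted p = 1.34e-08).

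Pck1 encodes the cytosolic phosphoenolpyruvate carboxykinase, a gene induced by fasting signals and repressed by insulin. It was the most variable of the 9 genes among WT livers of the total line. Its probe (mm9, chr2:172984307-172984366) gave 12.75, 13.55, 13.56, 14.83, 15.34, 15.75, 15.83 and 16.02 in these 8 livers, a range of over 3 log2 units. The 7 total ChREBP-KO livers ranged from 14.85 to 16.69 (median 15.40), so 3 of them lay above every WT liver and the rest inside the WT range. The mean was 0.98 higher (SE 0.43, 95% CI 0.10 to 1.86), which did not pass (limma adjusted p = 0.0887). The scan days differed here. Among arrays of the first, the 4 WT livers had a mean of 13.80 ± 1.09 (SD) and the 4 KO livers 15.42 ± 0.48, a difference of 1.62 that passed in a fit of that day alone (limma adjusted p = 0.0406). Among arrays of the second, 4 WT livers had 15.61 ± 0.53 and 3 KO livers 16.04 ± 0.80, a difference of 0.43 that did not (limma adjusted p = 0.615). A scan day records when arrays were read; whether these livers were also collected apart is not given in the sources used here. ChREBPβ-deficient livers ranged from 13.62 to 15.99 (median 14.74) and their WT littermates from 14.04 to 16.16 (median 15.42), with a difference of -0.49 (SE 0.42, 95% CI -1.34 to 0.36, limma adjusted p = 1.0). The effects of the knockouts on Pck1 were 1.47 apart (SE 0.60, limma adjusted p = 0.0992), which did not pass.

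**Figure D3:**
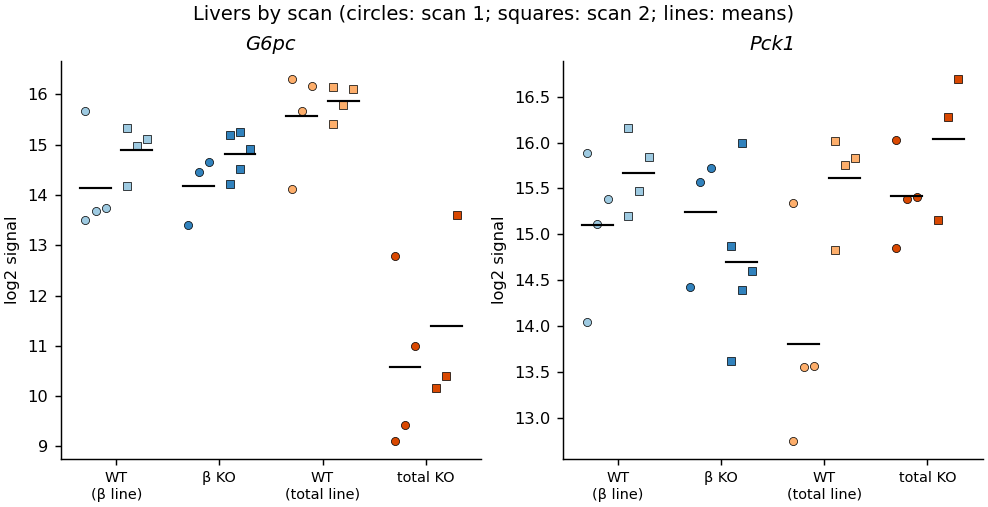
Log2 signal (vertical axis) of G6pc and Pck1 in each liver by group (horizontal axis), split by scan day, with lines at the means. G6pc of total ChREBP-KO livers lies below every WT littermate on both days, whereas the Pck1 means of WT livers of the total line are 13.80 on the first day and 15.61 on the second.

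Pck2 encodes the mitochondrial isozyme. Its probe (mm9, chr14:56167465-56167524) ranged from 8.36 to 9.10 in total ChREBP-KO livers (median 8.66) and from 8.27 to 9.03 in WT littermates (median 8.55). These were nearly the same range, with a difference of 0.08 (SE 0.15, 95% CI -0.22 to 0.38, limma adjusted p = 0.724). In the β line the difference was 0.10 (SE 0.14, 95% CI -0.18 to 0.39, limma adjusted p = 1.0). Pck2 therefore had no detected change in either knockout, within an interval that reached 1.30-fold in the total line.

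The difference between the 2 knockouts in their effect, each against its own WT littermates, was tested directly. It was called for 7 of the 9 genes, in each with the lower value in total ChREBP-KO mice, against 18.3% of all genes in either direction, 9.6% lower and 8.82% higher. These were the same 7 genes that were lower in the total line. For G6pc3 the call was lost with slide as a fixed block (limma adjusted p = 0.143), on each scan day alone (0.575 and 0.0871) and with no filter on dim spots (0.0577). Pck1 and Pck2 were not called.

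The WT littermates of the 2 lines were called different in 21.2% of all genes tested, and 2 of the 9 genes were among them. Slc37a4 was higher in WT littermates of the total line by 0.47 (SE 0.13, limma adjusted p = 0.0103). Pcx was lower (-0.19, SE 0.06, limma adjusted p = 0.0247), a call that the exact Mann-Whitney test did not make (adjusted p = 0.0562). For G6pc the WT means were 14.52 ± 0.84 (SD, n = 8) in the β line and 15.71 ± 0.71 (SD, n = 8) in the total line. This difference of 1.19 (SE 0.48, limma adjusted p = 0.0847) did not pass, although it did by an exact Mann-Whitney test (adjusted p = 0.0452), in a limma fit of the WT groups alone (adjusted p = 0.0302), without replicate 2 of the WT littermates of the total line (1.42, limma adjusted p = 0.0389), and without replicate 8 of the total ChREBP-KO livers (limma adjusted p = 0.0424). Pck2 was 0.35 higher in WT littermates of the total line (SE 0.14, limma adjusted p = 0.0892), and this passed with scan day as a block (0.0322), with a replicate block (0.0193) and without replicate 2 of the WT littermates of the β line (0.0403). Line, litter and breeding cannot be told apart in this comparison, so each knockout is read only against its own littermates. Red blood cell markers were also higher in WT littermates of the total line, in 2 of 3 genes tested (mean level 12.96 to 13.37, against 12.05 to 13.10 in the β line), as were both pancreas markers tested (8.70 to 12.72, against 8.03 to 8.84). The endothelial marker Pecam1 was higher by 0.21 (1 of 4 endothelial genes). Of the periportal markers, Hal and Arg1 were lower there, and of the pericentral markers Cyp2e1 and Oat. The part of these markers in the differences was not tested.

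Markers of cell types were also read in total ChREBP-KO livers, where 17.3% of all genes were called higher and 17.1% lower. Of the 7 markers of pericentral hepatocytes, 4 were higher: Cyp1a2 by 1.5, Slc1a2 by 1.29, Oat by 0.79 and Cyp2e1 by 0.69. Their mean level over the 7 genes ranged from 12.28 to 13.20 in KO livers and from 11.66 to 12.47 in WT littermates. None of the 6 markers of periportal hepatocytes, the zone in which gluconeogenesis is highest, was called by limma, with mean levels of 14.66 to 15.46 and 14.68 to 15.59. Stellate cell markers were higher in 2 of 4 genes, and their mean level ranged from 9.78 to 10.36 in KO livers and from 9.0 to 9.85 in WT littermates. The part of zonation or cell content in the decreases was not tested, and in whole liver fewer cells of a type and less RNA per cell cannot be told apart. Macrophage (5 genes), endothelial (4 genes) and adipocyte (3 genes) markers had no call by limma in this comparison. Of the remaining lists, Ttr of 6 hepatocyte markers, Epcam of 5 cholangiocyte markers and Alas2 of 3 red blood cell markers were higher, and Ctrb1 of 2 pancreas markers was lower. Single calls in such short lists are not read as a change of a cell type.

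Genes of the same pathways were read beside the 9, from lists by function. None of the 70 tested was called by limma in ChREBPβ-deficient livers. In total ChREBP-KO livers the counts of each list stand beside 17.3% of all genes called higher and 17.1% called lower. Among 12 other hexose transporters and hexokinases tested in total ChREBP-KO livers, 2 were higher and 3 lower. The lower genes were the insulin-regulated transporter Slc2a4 (-3.19, SE 0.42, limma adjusted p = 6.25e-07), the fructose transporter Slc2a5 (-0.67, SE 0.25, limma adjusted p = 0.0377) and G6pc2 (-0.31, limma adjusted p = 0.0448). G6pc2 encodes a glucose-6-phosphatase subunit, neither a transporter nor a hexokinase, but was counted in this list. Its probe was dim, with means of 5.25 in WT littermates and 4.93 in KO livers. On it the WT littermates of the total line were also higher than those of the β line (0.43, limma adjusted p = 0.00859). Slc2a9 and Hk1 were called higher by a probe other than their leading one. Of 9 enzymes shared by glycolysis and gluconeogenesis, 4 were lower and none higher, among them Gpi1 (-1.75), Eno1 (-0.95) and Gapdh (-0.49).

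Among enzymes that oppose gluconeogenesis at its regulated steps, or stand beside them, 4 of 9 genes tested were lower and 1 was higher. Pklr, the liver pyruvate kinase, was lower (-3.99, SE 0.28, limma adjusted p = 4.35e-12), as was Pfkfb1, the enzyme that makes and breaks fructose 2,6-bisphosphate in liver (-0.52). Pfkl and Pkm were called lower by a probe other than the leading one, and Pfkfb2 was higher by 0.38.

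Substrate entry into gluconeogenesis went both ways, with 8 of 20 genes higher and 6 lower, and a median of 0.05 over leading probes. In these counts Mdh1 and Slc25a13 were called higher, and Sds lower, only by a probe other than the leading one. Glycerol kinase (Gyk) was higher by 1.27 (SE 0.11, limma adjusted p = 4.45e-10), whereas mitochondrial glycerol-3-phosphate dehydrogenase (Gpd2) was lower (-2.11, SE 0.18, limma adjusted p = 2.69e-10). The lactate and pyruvate carrier Slc16a1 (-1.05) and the aspartate aminotransferase Got1 (-0.87) were lower. Among 20 genes of hormonal and transcriptional control, 4 were higher and 4 lower, each close to the share over all genes. Klf15 was higher by 0.66, Foxo3 by 0.58 and Crtc2, a coactivator of cAMP signaling, by 0.54, and Cebpb was lower (-0.46). Creb1 was called lower only by a probe other than its leading one.

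**Figure D4:**
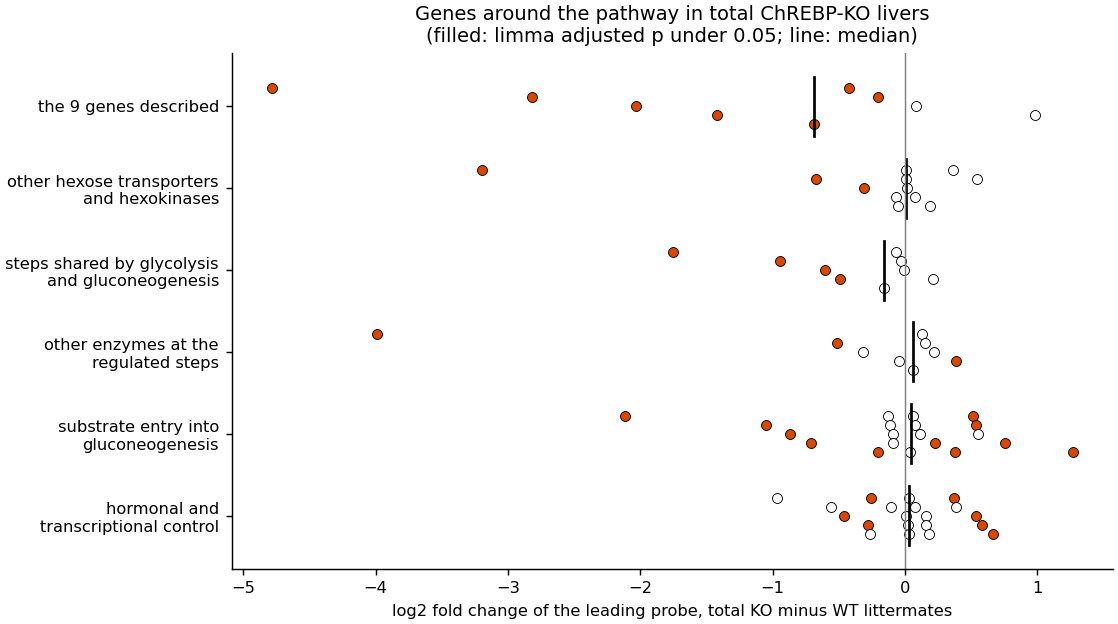
Log2 fold change of the leading probe in total ChREBP-KO livers against WT littermates (horizontal axis) for each gene of 6 lists (vertical axis), with a line at each list's median. The 9 genes described have a median of -0.69, while the medians of the other lists lie between -0.16 and 0.06.

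Within groups, and over both lines together, G6pc and Slc37a4 varied together more than any other pair of the 9 genes. The correlation of their deviations from the group means, over 31 arrays that share their normalization, was 0.61 (0.76 in the β line and 0.65 in the total line). G6pc3, the other phosphatase subunit, was nearly unrelated to both, with r = -0.04 with G6pc and 0.09 with Slc37a4. Over both lines the next highest values were 0.51 for Gckr and Slc37a4 (0.65 in the β line and 0.25 in the total line) and 0.47 for G6pc and Slc2a2 (0.44 and 0.48). Within each line another pair was slightly higher than G6pc and Slc37a4. These were Fbp1 and Pck2 in the β line (0.758 against 0.756) and Fbp1 and Slc37a4 in the total line (0.667 against 0.648). Pck2 had its lowest values with Pcx (-0.51), Slc37a4 (-0.51) and G6pc (-0.49), and values near 0 with Slc2a2 (-0.02) and Gckr (-0.12). Pck1 was nearly unrelated to G6pc (r = 0.07). Several pairs had opposite signs in the 2 lines, such as Pcx and Slc2a2, with 0.54 in the β line and -0.52 in the total line, and Fbp1 and Pck2, with 0.76 and -0.24. These are descriptions without a test.

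**Figure D5:**
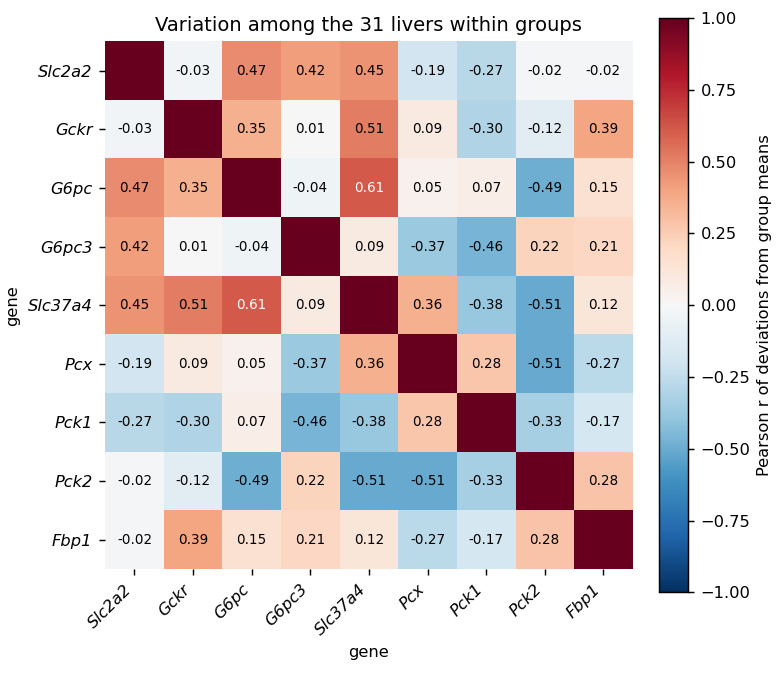
Pearson r between the 9 genes (both axes) of the deviations of 31 livers from their group means, with color from -1 to 1. The highest off-diagonal value is 0.61, between G6pc and Slc37a4, and the lowest are those of Pck2 with Pcx and Slc37a4, at -0.51.

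The genes that varied most like the leading probe of each of the 9 were found by the same measure. For Slc37a4 they were Pygl (r = 0.91), the liver glycogen phosphorylase, and Khk (r = 0.89), the ketohexokinase that phosphorylates fructose. Slc2a2 was most like Pex19 and Olfml1 (r = 0.91 each), and G6pc like Arl4d (r = 0.82) and Slc16a10 (r = 0.76), an aromatic amino acid transporter. Pck1 was most like a non-coding probe named only by position (r = 0.92) and Trp53inp2 (r = 0.86). Pck2 was most like Kcnj8 (r = 0.81) and Gtpbp2 (r = 0.80), Gckr like 8030462N17Rik (r = 0.80) and Nxt1 (r = 0.79), G6pc3 like Gemin5 (r = 0.78) and Dph7 (r = 0.76), Fbp1 like Parl (r = 0.76) and Pbrm1 (r = 0.75), and Pcx like a non-coding probe named only by position (r = 0.78) and Ero1lb (r = 0.75). The highest of all genes tested were taken in each case, each by whichever of its probes had the highest r, and no test was made.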

How the data were processed

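RNA from 31 mouse livers was hybridized by the authors to 1-color Agilent arrays, read with Feature Extraction 10.10.1.1 per the labels. The scanner files hold intensity per spot. The authors used the median pixel intensity with no background subtraction, a spot filter (found, positive and significant, above background in 26 arrays overall or in 6 of 1 group) and quantile normalization, and deposited log2 values. Here these steps were run again from the intensities (38721 spots, 36059 probes, with the median over repeated spots). The deposited log2 values differed by -0.03 to 0.03 (1st to 99th percentile) and were an alternative.

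The 4 groups were fitted together with limma 3.58.1 in R 4.3.3, with no slide, scan or replicate term, and p-values were adjusted by Benjamini-Hochberg (threshold 0.05). A gene was called by any of its probes. Arrays lay on 15 slides and were scanned on 2 days, each with all 4 groups; their number limits the precision. The fit was tested on simulated data. The labels number replicates without naming litters, so p-values measure the spread between these samples. No spot of the 9 genes was saturated.

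The 9 genes and all lists were chosen with earlier results of these data known. By rule, all 9 are named with each tested probe, other lists by up to 4 called genes with the largest change, or all where 5 or fewer were called, and likeness by the 2 highest gene names. In the pathway lists, genes called only by a probe other than their leading one are named as well. Alternatives were other signals, scalings and filters, slide or scan day as a block, the Mann-Whitney test of the study, and leaving out each array. Promoters are those of RefSeq (GRCm38.p6); probe positions are those of the array files (mm9). Their exons were not looked up, and the kinase that Gckr regulates and 1 called gene of the lists are not reported here.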

Additional observations from a re-analysis of the deposited data

Results flagged for a closer look

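Several single livers stood apart from the other livers of their group. Replicate 2 of the WT littermates of the total line was the lowest of its group for G6pc, at 14.12 where the next liver had 15.40, for Slc2a2, at 11.03 where the next had 11.82, and for the second G6pc3 probe, at 7.53 where the next had 7.70. Replicate 2 of the ChREBPβ-deficient livers was the lowest of its group for Slc2a2, at 11.28 against 12.13. Replicate 1 of the WT littermates of the β line was the highest of its group for the second G6pc3 probe, at 8.26 against 7.89. By chance, about 1 in 20 of the 44 groups of values examined would hold such a case. The groups are not independent, because the 11 probes were read on the same livers.

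The effect of losing total ChREBP differed from that of losing ChREBPβ for 7 genes, by the interaction term of the limma fit. The difference on the log2 scale was -4.84 for G6pc, -2.99 for Slc2a2, -2.22 for Slc37a4, -1.37 for Fbp1, -0.84 for Gckr, -0.47 for Pcx and -0.27 for G6pc3.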

How the results depend on the processing

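In ChREBPβ-deficient livers none of the 9 genes was called under any of 16 settings or 31 fits that left out an array. Among the settings was the exact Mann-Whitney test, which called no probe of the array in this comparison. In total ChREBP-KO livers 5 to 7 were called under the settings, and 6 to 8 without 1 array: 6 without replicate 7 or 8 of the KO livers, which ended the G6pc3 call (limma adjusted p = 0.0610 and 0.0537), and 8 without replicate 5 of the WT littermates, which added Pck1 (1.17, limma adjusted p = 0.0413). The difference of the effects was called for 5 to 7 genes under the settings and 6 to 7 without 1 array. Slc2a2, Gckr, G6pc, Slc37a4, Pcx and Fbp1 kept direction and call in total ChREBP-KO livers throughout, except where a fold change of at least 1.5 was also asked of Pcx (1.34-fold). The leading G6pc3 probe lost its call with slide as a fixed block (limma adjusted p = 0.0836), on each scan day alone and by the exact Mann-Whitney test (adjusted p = 0.0738), which called the second probe instead (adjusted p = 0.0420).

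Between the WT littermates of the lines, the count of 2 became 0 with slide as a fixed block, 0 on scan day 1 alone, 1 on scan day 2 alone and 0 with a fold change of at least 1.5, and 1 to 3 without 1 array. The replicate numbers were not taken to pair the samples. The correlation of same-numbered livers was -0.21 to 0.24 in the total line, where 1 of 7 was best matched by its own number. In the β line it was -0.16 to 0.53, with 3 of 8 so matched. These values do not decide whether the numbers pair mice in the β line. With a replicate block the counts were 0 in the β line, 7 in the total line, 7 for the difference and 3 between WT groups.

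Values that changed sign were small and not called. For ChREBPβ they were G6pc at -0.023 and Pcx at -0.028 with the processed signal, -0.0090 and -0.031 with median signals scaled to the 75th percentile, Pcx at -0.014 with slide as a fixed block, and G6pc at -0.020 with scan day as a block. On scan day 1 they were Pck1 at 0.14 and Slc2a2 at -0.13, and on day 2 Fbp1 at 0.061, G6pc at -0.074 and the second Slc37a4 probe at 0.015. For total ChREBP, Pck2 was at -0.054 on day 1. Between WT groups, Fbp1 was at 0.036 and G6pc3 at 0.0032 with the processed signal, Fbp1 at 0.050 with scaled median signals and 0.021 with the deposited values, and Slc2a2 at 0.060 with slide as a fixed block. Gckr was at 0.023 on day 1, and Fbp1 at 0.058, G6pc3 at 0.0091 and Slc2a2 at 0.13 on day 2. Without 1 array, G6pc in the β line ranged from -0.088 to 0.23 and the Pck2 difference of the effects from -0.096 to 0.049. Between WT groups the ranges were -0.065 to 0.031 for Fbp1, -0.054 to 0.016 and -0.069 to 0.026 for the G6pc3 probes, -0.038 to 0.021 for Gckr and -0.081 to 0.11 for Slc2a2. The cause of these changes was not tested. Of the 11 probes tested, 10 met the conditions on spot quality on 30 or 31 arrays, and the second Slc37a4 probe on 24.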
